A study of Mus musculus with 16 samples.

Results

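The Hox genes are the 39 protein-coding genes of the mouse named Hoxa, Hoxb, Hoxc or Hoxd with a number. They were taken by gene name and gene type from the normalized-count tables of the series, and all 39 were found in both tables among 56941 genes, of which 21684 are protein-coding. By cluster they are 11 Hoxa, 10 Hoxb, 9 Hoxc and 9 Hoxd genes.

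Hox genes encode homeodomain transcription factors that give cells their position along the body axis. Within a cluster the genes lie in the order in which they are expressed from head to tail, so that low paralog numbers mark the hindbrain and neck and high numbers the lumbar, sacral and tail regions, and genes with the same number in different clusters are paralogs of common descent. Cultured fibroblasts are known to keep part of the Hox code of the body site they came from, and neurons and glia of the neural crest carry a code that depends on the axial level of their origin.

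Bulk RNA was sequenced from 16 libraries of an indirect coculture, in which the cells on the insert and the explants in the well shared medium and did not touch. The PSC libraries were mPSC1 cells, 1 immortalized line of murine pancreatic stellate cells that becomes activated on plastic, grown alone (PSC, n = 3) or with explants (PSC+SCG, n = 3). Nerve samples were explants of superior cervical ganglia (SCGs), the uppermost sympathetic ganglia of the neck, from wild-type C57BL/6J pups of postnatal days 1 to 4, grown in medium with nerve growth factor alone (SCG, n = 3), with mouse embryonic fibroblasts of the NIH 3T3 line (SCG+MEF, n = 3) or with mPSC1 cells (SCG+PSC, n = 4). Wells with explants held 8 to 13 of them, and cocultures had 10000 cells on the insert for about 70 hours. The explants of a well were pooled, were not sorted and keep glia, fibroblasts and other cells of the ganglion, and nothing in the labels says whether libraries of a group were separate cultures, so p-values measure the spread between these libraries.

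Reads on genes, recovered for 14 libraries, ranged from 31900689 to 41632381. The sympathetic neuron genes Th and Dbh separated the tables. Th, the rate-limiting enzyme of catecholamine synthesis, had at most 3.85 normalized counts in the PSC libraries and at least 8836 in the nerve libraries, and Dbh, the enzyme that makes noradrenaline, at most 3.19 and at least 21398. Other markers of these neurons were not absent from PSCs. Tubb3, Gata2, Hand2, Gata3 and Isl1 had means of 1752, 1089, 743, 382 and 133 counts there, and 38865, 6231, 5186, 1142 and 2195 in the nerve libraries. The stellate cell markers Vim and Acta2 were high in the PSC libraries, whereas Gfap did not exceed 6.76 counts and Lrat, the enzyme that stores retinoids, was 0. The pancreatic epithelial regulators Pdx1 and Ptf1a were 0 in all libraries. The nerve libraries also held glial (8 genes, 1678 to 2344 CPM, counts scaled to the total on genes of each library), macrophage (5 genes, 86.8 to 129 CPM) and endothelial markers (4 genes, 32.8 to 76.5 CPM), and their fibroblast markers summed to between 12749 and 18603 CPM against 16892 to 25764 in the PSC libraries.

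The 3 homeoboxes below, the part of each gene that codes for the DNA-binding domain, are shown because the results turn on these genes. Hoxb9 had the highest level in PSCs, Hoxc4 the highest in SCG explants, and Hoxc13 was present in PSCs apart from its neighbours in the cluster. The sequences were read from GRCm39 on the plus strand, each lies in the second and last coding exon, and capitals mark the 18 bases that code for the core of the DNA recognition helix.
Hoxb9 (chr11:96165485-96165664): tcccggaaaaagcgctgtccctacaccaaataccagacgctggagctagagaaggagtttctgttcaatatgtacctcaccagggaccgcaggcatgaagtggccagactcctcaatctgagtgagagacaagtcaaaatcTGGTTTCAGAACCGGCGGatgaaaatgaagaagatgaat
Hoxc4 (chr15:102944089-102944268): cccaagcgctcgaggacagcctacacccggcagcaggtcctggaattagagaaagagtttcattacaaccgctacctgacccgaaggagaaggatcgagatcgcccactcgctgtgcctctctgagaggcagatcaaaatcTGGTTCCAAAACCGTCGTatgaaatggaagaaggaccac
Hoxc13 (chr15:102835645-102835824): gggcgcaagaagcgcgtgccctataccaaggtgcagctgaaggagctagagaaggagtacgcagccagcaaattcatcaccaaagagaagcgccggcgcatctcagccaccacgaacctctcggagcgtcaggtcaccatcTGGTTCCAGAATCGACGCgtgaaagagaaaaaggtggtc
The homeoboxes of Hoxb9 and Hoxc4 were identical at 59.4% of their 180 bases, and those of Hoxc4 and Hoxc13, which lie in 1 cluster, at 52.8%. Over all 39 members, pairs with the same paralog number were identical at a median of 80.6% of bases (42 pairs, 67.2 to 93.9%), pairs of the same cluster at 61.7%, and other pairs at 60.6%. The capital letters took 30 forms in the 39 genes. The longest run of identical bases between transcripts of different members was 52, in Hoxa6 and Hoxb4, followed by 50 in Hoxb9 and Hoxc9. The bases of such a run alone do not tell the genes that share it apart.

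To determine which parts of the code each source expressed, a member was called present in a table at a mean of at least 10 normalized counts, trace from 1 to below 10 and near 0 below 1. In PSCs 25 of the 39 members were present, 7 were trace and 7 near 0, and in SCG explants 19 were present, 4 trace and 16 near 0. Of these, 17 were present in both. PSCs expressed the code further toward the tail, with 6 of the 16 members of paralog numbers 9 to 13 present, against 1 of 16, Hoxb9, in SCG explants. The members of numbers 1 to 3 were present in 5 of 8 cases in PSCs and 6 of 8 in explants, and those of numbers 4 to 8 in 14 of 15 and 12 of 15. Values of the tables were normalized apart, so these are descriptions of each table with no test between them. In bulk samples fewer cells of a type and less RNA per cell cannot be told apart.

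**Figure D1:**
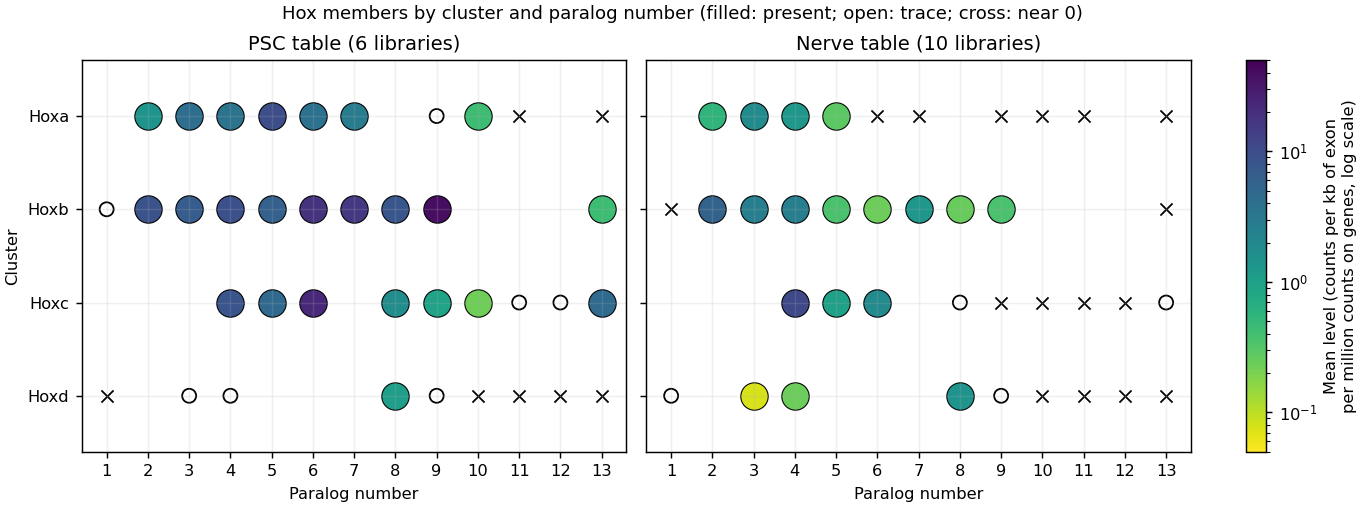
Members by cluster (rows) and paralog number (columns) in the PSC table (left, 6 libraries) and the nerve table (right, 10 libraries). Colour gives the mean level in CPM per kb of exon, filled circles are members present, open circles trace and crosses near 0; the filled circles reach Hoxa10, Hoxb13, Hoxc13 and Hoxd8 in PSCs and Hoxa5, Hoxb9, Hoxc6 and Hoxd8 in SCG explants.

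The clusters differed in how much of their length was used. The Hoxa cluster (GRCm39 chr6:52132570-52237822) had 8 of 11 members present in PSCs, with Hoxa10 the most posterior, and 5 of 11 in explants, with Hoxa5 the most posterior. The Hoxb cluster (chr11:96085106-96259082) had 9 of 10 present in PSCs and 8 of 10 in explants, which shared Hoxb2 to Hoxb9 and differed in Hoxb13. The Hoxc cluster (chr15:102829538-102945278) had 7 of 9 present in PSCs and 3 of 9 in explants, Hoxc4, Hoxc5 and Hoxc6. The Hoxd cluster (chr2:74498654-74595486) had 1 of 9 present in PSCs, Hoxd8, and 3 of 9 in explants, Hoxd3, Hoxd4 and Hoxd8. Hoxb1, the most anterior member of its cluster, was trace or near 0 in both.

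Levels were compared between genes as CPM per kb of exon. All Hox genes together took 362 to 472 CPM in the PSC libraries (median 429) and 76.2 to 99.4 CPM in the nerve libraries (median 83.0). In PSCs the Hoxb cluster held a median of 61.2% of the summed level per kb, Hoxc 23.4%, Hoxa 14.8% and Hoxd 0.54%. In the nerve libraries Hoxc held 40.9% and Hoxb 40.0%, with ranges over libraries from 24.7 to 57.9% and from 28.6 to 54.9%, whereas Hoxa held 12.7% and Hoxd 5.16%. By paralog number, members 1 to 3 held 11.9% of the summed level in PSCs and 33.3% in explants, members 4 to 8 62.7% and 64.9%, and members 9 to 13 25.5% and 1.50%. The mean paralog number weighted by level ranged from 6.23 to 6.43 over the PSC libraries and from 3.73 to 4.12 over the nerve libraries, and these ranges do not overlap.

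Among the PSC members, Hoxb9 led. This gene of the thoracic region had 4087, 4229.8 and 3725 normalized counts in PSC and 4136, 3715 and 3353 in PSC+SCG. Its level of 39.4 ± 4.41 per kb (SD, n = 6 libraries) was above that of every other member in each library, and by mean count it ranked 2336th among the 21684 protein-coding genes. Next came Hoxc6, which is expressed around the border of neck and thorax, with 1400.2, 1469 and 1229 normalized counts in PSC and 1396, 1636 and 1165 in PSC+SCG. Its level of 22.5 ± 3.36 and that of Hoxb6, 18.5 ± 2.68, overlapped in range, but Hoxc6 was above Hoxb6 in each of the 6 libraries. With the length of the canonical transcript the order turned, with means of 22.8 for Hoxc6 and 24.6 for Hoxb6.

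The trunk genes Hoxb6 and Hoxb7 followed, and Hoxb4 of the neck region was lower. Hoxb6 had 1674, 1579 and 1374 normalized counts in PSC and 1452, 1849 and 1401 in PSC+SCG. Hoxb7 had 779.6, 791 and 684 normalized counts in PSC and 663, 899 and 737 in PSC+SCG. The 6 libraries lay within 1 narrow band for both genes, with the highest value of each in PSC+SCG replicate 2. Hoxb4, known for its use in expanding blood stem cells, had 948, 948 and 629 normalized counts in PSC and 812, 1179 and 589 in PSC+SCG. It was the most variable of these, and replicate 3 was lowest in both groups.

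Hoxa5, Hoxb2 and Hoxc4 had levels near that of Hoxb4. Hoxa5, which patterns the neck region and the lung, had 698, 548 and 626 normalized counts in PSC and 769, 655 and 661 in PSC+SCG. Hoxb2, a gene of the hindbrain, had 512, 468 and 470.1 normalized counts in PSC and 471, 553 and 535 in PSC+SCG. Hoxc4, of the neck region, had 754, 816 and 786 normalized counts in PSC and 765, 827 and 767 in PSC+SCG, and its 6 libraries differed less than those of any other of the 8 highest members. The levels of Hoxa5, Hoxb4, Hoxb2 and Hoxc4, from 9.65 to 8.40 per kb, overlapped in range, and their order changed from library to library except that Hoxa5 was above Hoxb2 in each of the 6.

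The posterior members of PSCs were present with gaps. Hoxc13, which is needed for hair and nails, had 331, 361 and 447 normalized counts in PSC and 398, 410.5 and 504 in PSC+SCG. Its level was 4.54 ± 0.54 per kb, whereas the neighbours toward the head, Hoxc12 and Hoxc11, were at 0.04 each (means of 4.77 and 2.60 counts) and Hoxc10 at 0.23. Hoxb13, a gene of the tail bud and the prostate that lies far from the rest of its cluster, had 43.1, 32.9 and 45.3 normalized counts in PSC and 25.7, 35.5 and 35.1 in PSC+SCG. Hoxa10, which patterns the lumbar region and the uterus, had 51.6, 44.3 and 35.6 normalized counts in PSC and 67.2, 57.2 and 37.2 in PSC+SCG, next to a trace of Hoxa9 (mean 5.30 counts) and 0.71 of Hoxa11.

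The other members that PSCs expressed and explants did not lie in the trunk and lumbar part of the code. Hoxa6 had 141, 102 and 111 normalized counts in PSC and 140.4, 125 and 112 in PSC+SCG. Hoxa7 had 269.7, 263 and 203 normalized counts in PSC and 265, 309.8 and 218 in PSC+SCG. Both are thoracic genes, and PSC and PSC+SCG overlapped for each. Hoxc8, which acts at the level of the arm and upper thorax, had 172, 126 and 116 normalized counts in PSC and 154, 108 and 95.7 in PSC+SCG. Hoxc9, which sets the thoracic identity of motor neurons, had 83.7, 111 and 61.6 normalized counts in PSC and 76.1, 112 and 109.6 in PSC+SCG. Hoxc10, a lumbar gene, was the lowest member present, with 15.2, 25.0 and 15.4 normalized counts in PSC and 6.92, 21.7 and 18.1 in PSC+SCG, and its lowest library fell below 10.

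**Figure D2:**
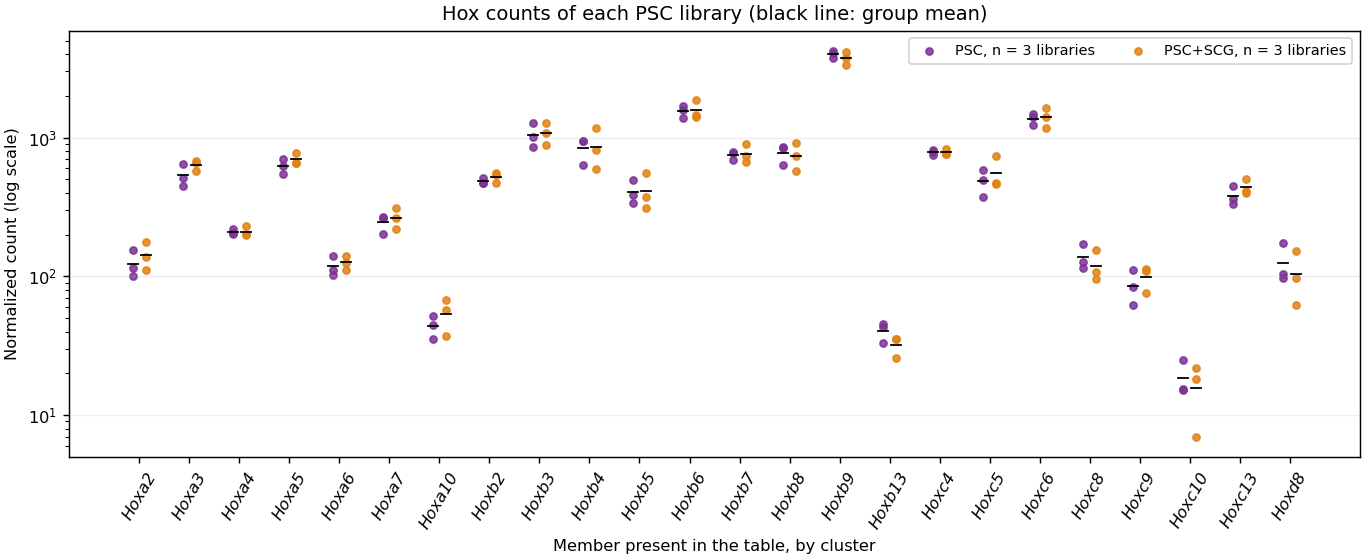
Normalized count (log axis) of members present in the PSC table, by cluster, in PSC (purple, n = 3 libraries) and PSC+SCG (orange, n = 3). Points are libraries and black lines group means; the groups overlap for each member shown, with Hoxb9 between 3353 and 4230.

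To determine whether coculture with SCG explants changed the code of PSCs, PSC+SCG was compared with PSC by limma on log2(normalized count + 1), with Benjamini-Hochberg adjustment over all genes tested. The threshold combined an adjusted p of 0.05 or below with a difference of 0.5 or more on the log2 scale. Of the 39 members 30 passed the filter on low values and 0 passed the threshold, where the share of all 21273 genes was 0%. At an unadjusted p under 0.05 there were 0 members, against 1.92% of all genes. With the replicate number as a block 98 genes passed, 0.461%, and 0 of them were Hox genes, and 0 members were under an unadjusted p of 0.05, against 8.37% of all genes. The log2 fold changes of the 25 members present lay between -0.34 (Hoxc10) and 0.27 (Hoxa10) with a median of 0.02, 16 above and 9 below 0. Their 95% confidence intervals lay within ±1 for 21 members, and with the block for 24. Without the block Hoxb9 differed by -0.11 (SE 0.13, 95% interval -0.39 to 0.18) and Hoxc4 by 0.00 (SE 0.12, -0.28 to 0.29), the narrowest intervals among the leading members. Among the 30 members tested, groups that did not overlap were found for Hoxd4 alone, against 5.6% of all genes. This trace member had 1.69, 3.41 and 0.96 counts in PSC and 3.96, 6.91 and 4.26 in PSC+SCG. Its log2 fold change of 1.05 (SE 0.56) did not pass in limma (adjusted p = 1.0). The trace member Hoxb1, which did not pass the filter and was not tested, had 1.69, 5.68 and 0.96 counts in PSC and 0 in PSC+SCG, which is at the floor.

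In SCG explants the anterior and neck members led. Hoxc4 had 957, 561 and 1701 normalized counts in SCG, 1101, 746 and 1558 in SCG+MEF, and 876, 527, 968 and 874 in SCG+PSC. Its level of 11.1 ± 4.14 per kb (SD, n = 10 libraries) was the highest mean, and by mean count it ranked 7067th among protein-coding genes. The spread was wide in each group, and the groups overlapped. Hoxc6 had 103, 77.1 and 163 normalized counts in SCG, 112, 91.1 and 187 in SCG+MEF, and 104, 73.0, 115 and 83.7 in SCG+PSC, at 1.89 ± 0.60 per kb. Both genes are expressed at the level of the neck and upper thorax.

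The hindbrain and neck members of the Hoxb and Hoxa clusters followed. Hoxb2 had 321, 343 and 325 normalized counts in SCG, 237, 324 and 319 in SCG+MEF, and 292, 435, 323 and 287 in SCG+PSC. Its level of 5.71 ± 0.89 per kb was the second highest mean, and its libraries overlapped with the lowest of Hoxc4. Hoxb3, which is active in the hindbrain and the pharyngeal arches, had 401, 568 and 332 normalized counts in SCG, 454, 465 and 283 in SCG+MEF, and 457, 483, 287 and 378 in SCG+PSC. Hoxb4 had 249, 262 and 172 normalized counts in SCG, 199.7, 285 and 224 in SCG+MEF, and 237, 301, 203 and 212 in SCG+PSC. At 2.69 ± 0.62 and 2.65 ± 0.47 per kb, Hoxb3 and Hoxb4 were within each other's spread. Hoxa3, which is needed for the thymus, the parathyroid and the carotid body, had 226, 339.6 and 202 normalized counts in SCG, 214, 306 and 147 in SCG+MEF, and 202, 276, 213 and 214 in SCG+PSC, at 1.81 ± 0.45 per kb.

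The remaining 2 of the 8 highest members were trunk genes. Hoxd8 had 126, 98.9 and 155 normalized counts in SCG, 123, 129 and 170.3 in SCG+MEF, and 131, 95.3, 202 and 178 in SCG+PSC. It was the 1 Hoxd gene present in both tables, and its level of 0.936 to 2.01 per kb over the explant libraries stood beside 1.06 ± 0.35 in PSCs. Hoxb7 had 64.8, 73.2 and 20.5 normalized counts in SCG, 74.0, 78.0 and 45.6 in SCG+MEF, and 51.8, 51.7, 64.1 and 44.4 in SCG+PSC, at 1.28 ± 0.40 per kb, and SCG replicate 3 was far below the rest. The members present but not named above had mean levels of 1.27 per kb and below, with Hoxd3 lowest at 0.08.

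Hoxd3 and Hoxd4, which pattern the first neck vertebrae, were present in the explants and not in PSCs. Hoxd3 had 26.3, 13.3 and 12.3 normalized counts in SCG, 17.2, 14.0 and 16.2 in SCG+MEF, and 13.4, 12.2, 22.4 and 8.07 in SCG+PSC. Hoxd4 had 23.3, 18.1 and 16.4 normalized counts in SCG, 26.4, 23.6 and 15.2 in SCG+MEF, and 26.9, 18.2, 12.8 and 30.3 in SCG+PSC. In the PSC libraries Hoxd3 did not exceed 3.38 counts and Hoxd4 did not exceed 6.91. Of their exon bases 37.8% and 44.7% lie in another gene model on the same strand, Gm28230, and reads there are not counted for either, so both levels are uncertain.

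**Figure D3:**
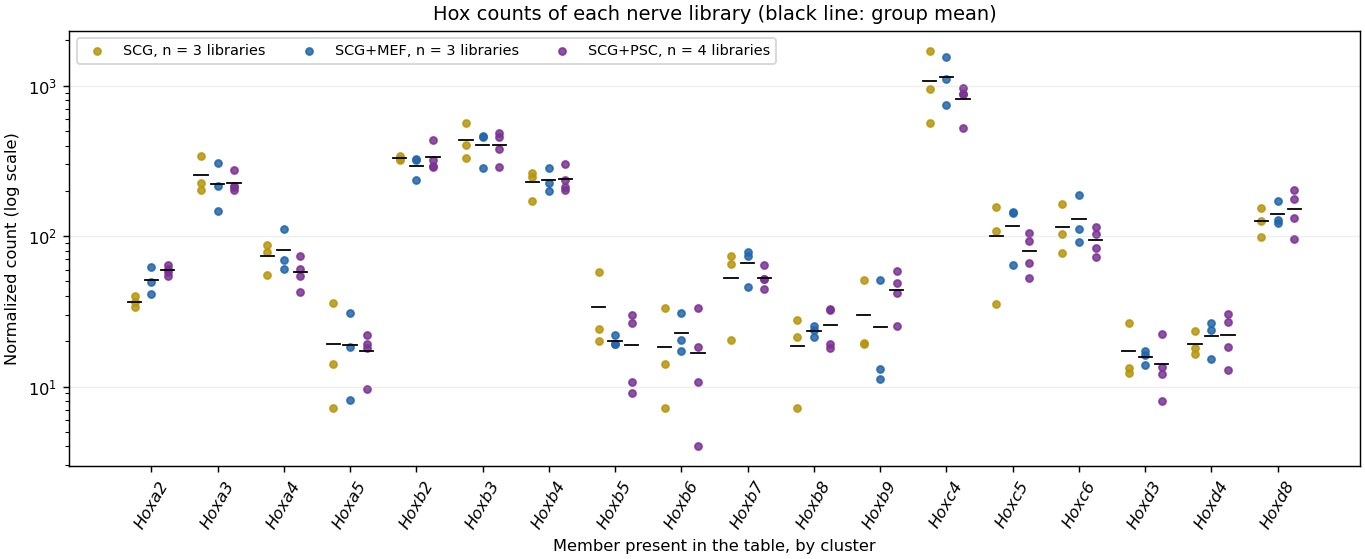
Normalized count (log axis) of members present in the nerve table, by cluster, in SCG (yellow, n = 3 libraries), SCG+MEF (blue, n = 3) and SCG+PSC (purple, n = 4). Points are libraries and black lines group means; Hoxc4 spans 527 to 1701, and Hoxa2 is the 1 member shown in which the 3 SCG libraries lie below all others.

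In the Hoxa, Hoxb and Hoxc clusters, no member beyond Hoxa5, Hoxb9 and Hoxc6 was present in the explants. The level per kb went from 0.28 at Hoxa5 to 0.003 at Hoxa6, from 1.89 at Hoxc6 to 0.05 at Hoxc8, and from 0.37 at Hoxb9 to 0 at Hoxb13. Hoxa10, Hoxb13 and Hoxc10 had 0 counts in all 10 nerve libraries, as did Hoxa11, Hoxa13, Hoxc11, Hoxc12, Hoxd10, Hoxd11 and Hoxd12. Hoxc8 and Hoxc13 were trace, with at most 7.10 and 5.07 counts. In the Hoxd cluster Hoxd9, next to Hoxd8, was trace, with 3.81 to 10.2 counts over the nerve libraries (mean 6.91) and a mean of 2.30 in PSCs.

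The 6 members present in PSCs and near 0 in explants, Hoxa6, Hoxa7, Hoxa10, Hoxb13, Hoxc9 and Hoxc10, were summed in recovered reads. They took 12.8 to 18.6 CPM in the PSC libraries. SCG held 0 reads of 103629337, SCG+MEF 4 reads of 108426025 and SCG+PSC replicates 1 to 3 4 reads of 102106472. The 0 reads in SCG allow up to 0.0289 CPM (3 reads), for counting error alone. The low sums in explants follow from how these members were chosen. With Hoxc8 and Hoxc13 added, the 8 members present in PSCs and not in explants took means of 29.6 CPM in PSC and 31.3 in PSC+SCG, and 0.116 in SCG, 0.224 in SCG+MEF and 0.148 in SCG+PSC.

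To determine whether fibroblasts changed the code of the explants, the 3 nerve groups were compared in 1 limma model of 9 libraries, which leaves out SCG+PSC replicate 4, a number that the other groups lack. The 3 comparisons share groups and are not independent. Of the 39 members 23 passed the filter on low values. In SCG+PSC against SCG 0 of them passed the threshold, where 3 of all 23491 genes did (0.0128%), in SCG+MEF against SCG 0, where 3 genes did (0.0128%), and in SCG+PSC against SCG+MEF 0, where no gene did (0%). At an unadjusted p under 0.05 there were 1, 0 and 1 members, against 4.01%, 3% and 3.21% of all genes. With the replicate number as a block 313, 38 and 185 genes passed (1.33%, 0.162% and 0.788%), and 0 of them were Hox genes. On recovered reads edgeR called 0 members, where it called 3, 3 and 0 genes (0.0128%, 0.0128% and 0%), and DESeq2 called 0 where it called 56, 22 and 18 genes (0.238%, 0.0937% and 0.0766%). The log2 fold changes of the 19 members present had medians of 0.04, 0.10 and -0.03, and their 95% intervals lay within ±1 for 9, 9 and 8 members, and with the block for 13, 14 and 15. For the others the interval reached beyond a 2-fold change.

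Hoxa2 (chr6:52138599-52141811), which gives the second branchial arch its identity, was the member under an unadjusted p of 0.05 in SCG+PSC against SCG. It had 36.4, 40.0 and 33.8 normalized counts in SCG, 49.7, 62.2 and 41.6 in SCG+MEF, and 54.7, 60.8, 57.7 and 64.6 in SCG+PSC. The 3 SCG libraries were below all libraries of both cocultures, and the cocultures overlapped. It was higher by 0.64 (SE 0.25, 95% interval 0.08 to 1.20) in SCG+PSC than in SCG on the log2 scale and did not pass in the fit across all genes (limma, adjusted p = 1.0, and 0.343 with the block). In SCG+MEF against SCG the difference was 0.45 (SE 0.25, adjusted p = 1.0). Groups did not overlap for 2 of 23 members in SCG+PSC against SCG, Hoxa2 and the trace member Hoxc13, for Hoxa2 alone in SCG+MEF against SCG, and for 0 in SCG+PSC against SCG+MEF, against 7.66%, 6.63% and 7.36% of all genes. Hoxc13 had 1.01, 1.90 and 1.02 counts in SCG and 0 in SCG+PSC, which is at the floor. Of the exon bases of Hoxa2 10.4% lie in another gene model, Gm28308. Of the endothelial markers, 4 of 4 genes were under an unadjusted p of 0.05 in SCG+PSC against SCG, and 1 of 4 in SCG+MEF against SCG. In limma 0 of the 4 passed the threshold in either comparison, with the block or without. The markers summed to 32.8 to 51.4 CPM in SCG, 51.0 to 57.7 in SCG+MEF and 51.4 to 76.5 in SCG+PSC. The part of these markers in the Hoxa2 values was not tested.

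Hoxb9 was the member under an unadjusted p of 0.05 in SCG+PSC against SCG+MEF. It had 19.2, 51.4 and 19.5 normalized counts in SCG, 11.2, 50.8 and 13.2 in SCG+MEF, and 42.2, 48.7, 58.8 and 25.2 in SCG+PSC. Its groups overlapped, since replicate 2 of SCG+MEF was as high as the SCG+PSC libraries and SCG+PSC replicate 4 was low. The difference was 1.28 on the log2 scale (SE 0.57, 95% interval 0.02 to 2.55) and did not pass in the fit across all genes (limma, adjusted p = 1.0, and 0.206 with the block). Against SCG it was 0.85 (SE 0.57). Its level in the explants, 0.37 ± 0.20 per kb, stood beside 39.4 in PSCs.

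Hoxc4, chosen after its values were seen, was lower in SCG+PSC than in both other groups within each of the 3 replicate numbers. The differences were -0.34 (SE 0.40) against SCG and -0.51 (SE 0.40) against SCG+MEF. With the block the errors fell to 0.13 and the unadjusted p to 0.0214 and 0.00219, but neither passed in limma (adjusted p = 0.334 and 0.106). Hoxa2 and Hoxc4 were thus the members under an unadjusted p of 0.05 with the block against SCG, and Hoxb9 and Hoxc4 those against SCG+MEF, where 10.7% and 11.7% of all genes were. In SCG+MEF against SCG there were 0, against 7.54%.

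**Figure D4:**
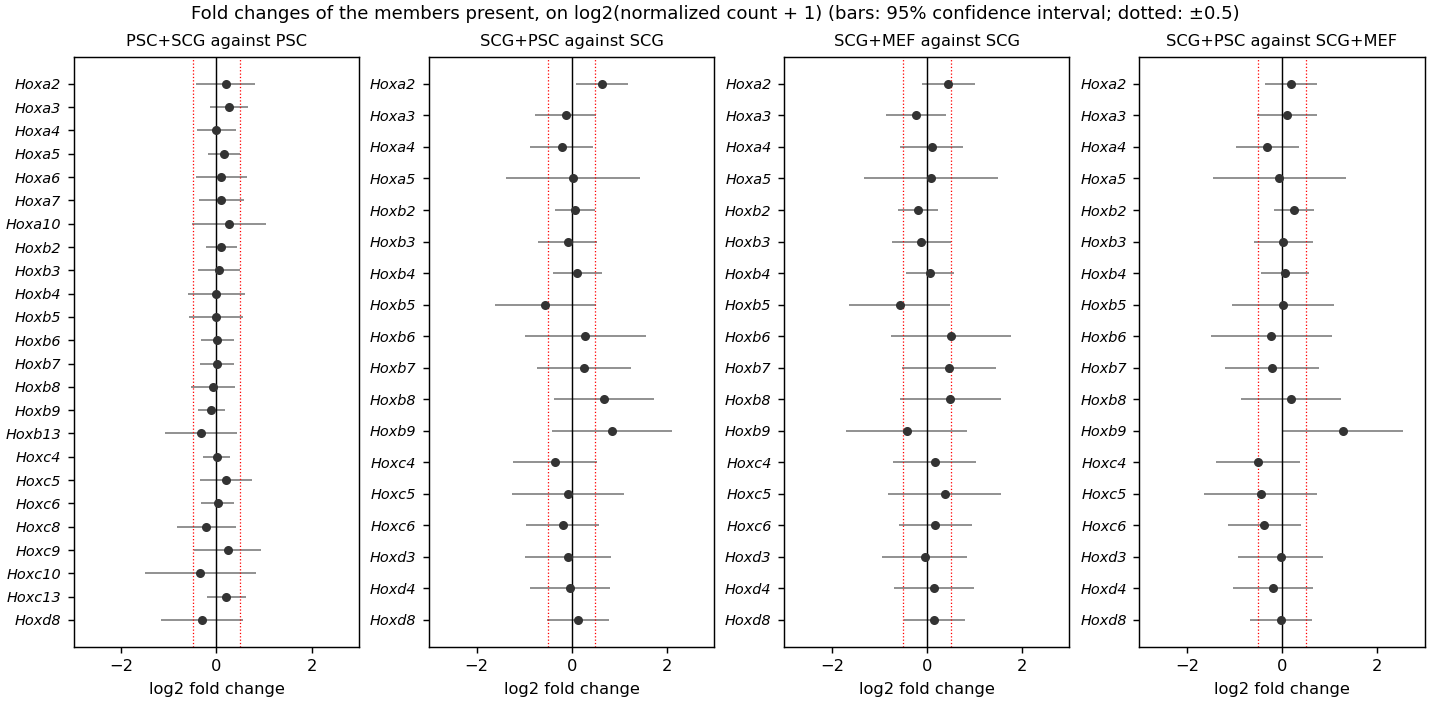
Log2 fold change on log2(normalized count + 1), without the block, of members present in PSCs (first panel) and in SCG explants (other panels). Points are estimates, bars 95% confidence intervals and dotted lines ±0.5; the intervals are narrower in PSCs, and the interval of Hoxa2 in SCG+PSC against SCG and that of Hoxb9 in SCG+PSC against SCG+MEF are the ones that do not reach 0.

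Within the nerve groups the order of the libraries followed the replicate number for several members. Hoxc4, Hoxc5 and Hoxc6, which are neighbours in their cluster, were highest in replicate 3 and lowest in replicate 2 in each of the 3 groups. Their sum was 1168, 674 and 2021 counts in SCG replicates 1 to 3, 1355, 901 and 1889 in SCG+MEF, and 1072, 653, 1188 and 1025 in SCG+PSC. The Hoxb and Hoxa genes showed another order. The sum of the Hoxb genes was highest in replicate 2 in each group (1378, 1279 and 1411 counts) and lowest in replicate 3 (943, 943 and 975 among replicates 1 to 3). The ratio of Hoxc4 to Hoxb3 counts ran from 0.99 in SCG replicate 2 to 5.51 in SCG+MEF replicate 3.

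The replicate number with the highest value was the same in all 3 groups for 12 of the 19 members present (63.2%), against 40.4% of the 17473 genes with a mean of at least 10 counts. In PSCs it was the same in both groups for 16 of 25 members (64%), against 60.3% of 16492 genes. There the Hoxb sum was lowest in replicate 3 in both groups, at 8751 and 8419 counts, whereas Hoxc13 and Hoxc5 were highest in it. In the nerve libraries the 12 sympathetic neuron markers summed to 3260 to 4746 CPM in replicates 2 and 6602 to 6930 in replicates 3, and the fibroblast markers were highest in replicates 2, at 17583 to 18603. Th and Dbh were among the markers summed. The part of these markers in the order of the Hox values was not tested.

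**Figure D5:**
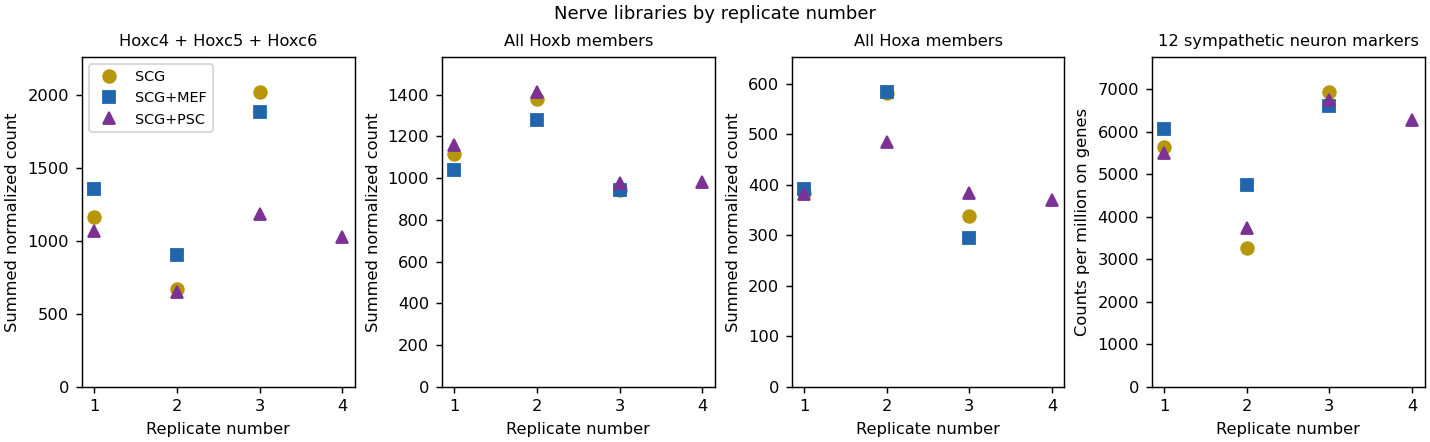
The 10 nerve libraries by replicate number (horizontal axis) in SCG (circles), SCG+MEF (squares) and SCG+PSC (triangles), with normalized counts summed over Hoxc4, Hoxc5 and Hoxc6, over all Hoxb members and over all Hoxa members, and CPM of 12 sympathetic neuron markers. Replicate 2 is lowest in the first and last panels and highest in the Hoxb and Hoxa panels in each group.

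Hox proteins bind DNA together with the TALE cofactors Pbx, Meis and Pknox, and all 9 genes of that list were present in both tables. Meis2 had a mean of 3326 counts in PSCs and 284 in explants and Meis3 757 and 1867. In limma 0 of the 9 passed the threshold in any of the 4 comparisons, with the block or without.

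The 23 upstream regulators comprised the Cdx genes, the Polycomb and Trithorax genes that silence and maintain the clusters, the retinoic acid receptors that induce their anterior members, and hindbrain regulators. The posterior inducers Cdx1, Cdx2 and Cdx4 were trace or near 0, with at most 6.81 counts. Without the block 0 of the 21 genes tested passed in any comparison. With the block 2 did, Rarb in PSC+SCG against PSC, by 1.10 (SE 0.16, limma adjusted p = 7.41e-04), and Ezh2, a histone methyltransferase of Polycomb, in SCG+PSC against SCG, by 0.52 (SE 0.09, adjusted p = 0.0173), where 0.461% and 1.33% of all genes passed. Without it their adjusted p was 1.0 for both. Egr2, which patterns the hindbrain and marks myelinating Schwann cells, was higher by 0.57 (SE 0.15) in SCG+PSC than in SCG+MEF and did not pass in limma (adjusted p = 1.0, and 0.0580 with the block).

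Noncoding genes of the clusters differed between the tables in their own way. Hoxb5os had a mean of 235 counts in PSCs and 0.29 in explants, Hoxaas2 187 and 16.8, and Hoxb3os 104 and 131. Halr1 had 3.99 in PSCs and 35.4 in explants. Hotair, Hottip and Hoxa11os, which lie in the posterior parts of the Hoxc and Hoxa clusters, were near 0 in both. In limma 0 of the 7 tested passed in any comparison, with the block or without. Of the 10 genes flanking the clusters that were found, the homeobox genes Evx1 and Evx2 had 0 counts in every library, 6 others were present in both tables, and 0 of the 8 tested passed.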

How the data were processed

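RNA was sequenced in bulk from TruSeq Stranded mRNA libraries of 6 PSC and 10 nerve samples, grouped by their labels. The authors aligned reads to GRCm39 with STAR 2.7.10b, counted reads of each gene, strand-aware, with GENCODE M33 basic, and divided each library by its DESeq2 1.38.3 size factor, in R 4.2.2, for the PSC and the nerve libraries apart. The deposited values are therefore a signal, normalized counts of 56941 genes. In all 16 libraries they were whole multiples of 1 step (100% of values within 0.02 of a whole number of steps). For 2 libraries, replicate 1 of PSC+SCG and the fourth of SCG+PSC, the step lay too near 1 for whole reads to be accepted. The reads of the other 14 were used for depth and for the count tests, which were run on the nerve table alone because 1 PSC+SCG library was not recovered.

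The test was limma 3.58.1 in R 4.3.3 on log2(normalized count + 1) with a trend, over genes whose values sum to at least 10, without a block. The study's methods use the experimental date as a covariate, but no library is tied to a date in the labels. The replicate number, which the labels give, was checked instead. Same-numbered libraries deviated together from their group means (r from 0.30 to 0.55 in 3 PSC pairs and from 0.17 to 0.51 in 9 nerve pairs, against -0.46 to 0.19 and -0.37 to 0.05 for other pairs), so the numbers were taken to pair the libraries. Deviations from a group mean sum to 0 within the group, so the low values of other pairs follow in part from the positive ones. Alternatives were this block, other pseudocounts, filters and normalization, adjustment over protein-coding genes, leaving out each library, other sets of nerve libraries, edgeR 4.0.16 and DESeq2 1.42.0. The fits were also run on simulated counts with the same dispersion for all genes and no effect of the replicate number. Changes were planted only in genes above a minimum mean, so the run does not cover the lowest members.

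Exon lengths (over all basic transcripts) and coordinates came from GENCODE M39 on GRCm39, a later release than the authors'. Values in each library are given for the 8 members with the highest level per kb in each table, for members past the threshold or under an unadjusted p of 0.05 without the block at a mean of at least 10 counts, and for members present in 1 table and not in the other. Some genes and a sequence are counted in the totals but not reported here. The members and the gene lists were chosen with earlier results of these data known.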

Additional observations from a re-analysis of the deposited data

Results flagged for a closer look

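In the SCG+PSC group, the 1 group with 4 libraries, the highest or lowest library of each of the 19 members present was compared with the spread of the other libraries (Dixon's test). Hoxa3 stood apart in SCG+PSC replicate 2, with 275.7 normalized counts against 202, 213 and 214 in replicates 1, 3 and 4. Replicate 2 was also the highest for Hoxa3 in SCG and in SCG+MEF. Chance flags about 1 in 20 groups, and 1 of 19 was flagged.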

How the results depend on the processing

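The number of Hox genes past the threshold was 0 in each of the 4 comparisons under all alternatives run, 13 for PSC+SCG against PSC and 20 for each nerve comparison. The lowest adjusted p of any member over them was 0.607 in PSCs, and 0.334 for SCG+PSC and 0.730 for SCG+MEF, both against SCG, and 0.106 between the cocultures. The replicate block, under which the count was also 0, changed no call on a member, and the values of Hoxa2, Hoxb9 and Hoxc4 with the pairing are given above. The difference of Hoxa2 in SCG+PSC against SCG ran from 0.56 to 0.70 on the log2 scale, that of Hoxb9 against SCG+MEF from 0.90 to 1.94, and that of Hoxc4 against SCG+MEF from -0.78 to -0.24. That of Hoxc4 against SCG ran from -0.74 to 0.061 when 1 library was left out, and it reversed without SCG replicate 3, the library with its highest count.

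The following alternatives were chosen after the data were seen. A minimum mean of 5 or 20 counts gave 26 or 24 members present in PSCs and 20 or 16 in explants, and leaving out any 1 library changed neither 25 nor 19. In PSCs the mean share of members 9 to 13 in the summed level, 25.2%, became 23.4% with the length of the canonical transcript and 29.3% without division by length, and that of members 1 to 3, 11.7%, became 13.2% and 15.3%. Without division by length the mean Hoxb share moved from 61.1% to 63.8% and the Hoxc share from 23.6% to 21.8%. Depth limits the lowest members: 16 in explants did not pass the filter on low values and were not tested.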

Other observations

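Regional markers outside the Hox clusters were read as well. Of the 5 genes listed for the cranial neural crest, Alx4 (mean 107 normalized counts), Dlx5 (81.6) and Dlx6 (30.6), known from facial and arch mesenchyme, were present in the nerve libraries, and Otx2, a marker of the forebrain and midbrain, was 0 in all libraries. In PSCs Dlx5 had a mean of 13.2 counts and Alx4 of 0.99, whereas Alx1 had 5.89 there and 1.42 in the nerve libraries. Of the 5 genes listed for limb and body wall mesenchyme, Prrx1 had a mean of 7161 counts in PSCs and 2665 in explants and Tbx15 had 1126 and 209, whereas the limb regulators Tbx5 and Pitx1 were 0 in all libraries and Tbx4 did not exceed 5.07. Of the pancreatic epithelial genes Krt19 was present in both tables (means of 67.7 and 51.8 counts), Cpa1 did not exceed 5.06 counts, and Ins2 was 0. In limma 0 genes of these lists passed the threshold in any comparison without the block.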
